A study of Mus musculus with 6 samples.

Results

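The genes described here encode enzymes of cholesterol and fatty acid synthesis and the proteins that control them. A list of 40 gene symbols, 18 of sterol synthesis, 12 of fatty acid synthesis and 10 of regulators and sterol handling proteins, was matched to the annotated probes of the array, and each gene was read from its brightest probe. Of the 40, 36 were measured among 19057 genes in all. Acat2, Hmgcs1, Fdft1 and Nr1h2 had no probe with that symbol in the annotation used and were not analysed here. The arrays came from immortalized proximal tubular cells of mouse, strain background C56BL/6 as the labels spell it, in 2 groups of 3. Glis2KD cells carried a lentiviral short hairpin RNA (shRNA) against Glis2, and Control cells one against GFP, and both were harvested 7 days after infection. An shRNA is a folded transcript that cells trim into a short guide against a matching mRNA. Each group is labelled with a single hairpin target, so lowered Glis2 cannot be told apart from other effects of that hairpin or of the infected population. No label states that the 3 replicates were separate cultures, and the p-values therefore reflect the spread among these arrays alone, which may be technical.

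Cells make cholesterol from acetyl-CoA through mevalonate, squalene and lanosterol, and fatty acids from acetyl-CoA through malonyl-CoA, followed by elongation and desaturation. Transcription of most of these enzymes is driven by the SREBP factors, encoded by Srebf1 and Srebf2. The escort protein Scap carries the SREBP precursors to the Golgi, where they are cut, and the Insig proteins hold Scap in the endoplasmic reticulum when sterols are plentiful. The proximal tubule takes up filtered lipid and protein by endocytosis and burns fatty acids as its main fuel.

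The values are linear fluorescence intensities with background included, and a background limit of 136.3 was set from the most frequent intensity, 112.8. Glis2 had intensities of 169, 161 and 176 on the Glis2KD arrays, against 278, 234 and 229.7 on the Control arrays, and the log2 fold change was -0.55 ± 0.092 (SE), for which limma's adjusted p was 6.36e-05. A second probe of Glis2 had a log2 fold change of -0.36. The Glis2KD mean of the brighter probe was 68.2% of the Control mean, background included. Of 11 proximal tubule markers measured, 4 were above the limit, and Lrp2, Slc34a1 and Slc5a2 were below it in both groups. The summed proximal tubule marker intensity was 3712 to 4043 on Glis2KD arrays, against 14163 to 15984 on Control arrays, and the called markers Aqp1, Mme and Dab2 all fell, while the other 8 were not called. Most of the difference in the sum was Aqp1, with a mean of 365 in Glis2KD and 9760.0 in Control cells. Of 7 fibroblast markers 1 was above the limit, Dcn, which fell, while Col1a2 rose but stayed below the limit on average, and the sums were 835 to 879.7 on Glis2KD arrays against 951 to 996 on Control arrays. Of 4 leukocyte and 5 endothelial markers measured 0 were above the limit, and of 8 distal and collecting duct markers 3 were, with sums of 1956 to 2093 on Glis2KD arrays against 2056 to 2208 on Control arrays. The brightest of these distal and collecting duct markers was Slc12a3, with means of 1148 in Glis2KD and 1244 in Control cells, and it was not called. The part of the fall of Aqp1, Mme and Dab2 in the results below was not tested.

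Sterol and fatty acid genes fell more often than they rose. Of the 36 measured, 9 fell, 2 rose and 25 were not called by limma with Benjamini-Hochberg adjustment over all genes at 0.05. That is 30.6%, beside 22.5% of all genes called in either direction, 11.4% lower and 11.1% higher. Of the 31 that lay above the background limit 35.5% were called, against 43% of all genes above the limit, 21.8% lower and 21.2% higher, so the listed genes were called no more often than detected genes in general. The median log2 fold change of the 36 was -0.075, against 0.0039 for all genes. The groups did not overlap for 16 of the 36, 12 lower and 4 higher in Glis2KD, where 32.2% of all genes and 52% of those above the limit did not overlap. Those that fell furthest were the sterol isomerase gene Ebp, the SREBP regulator gene Insig2, the acetyl-CoA synthetase gene Acss2 and the sterol carrier gene Stard4.

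**Figure D1:**
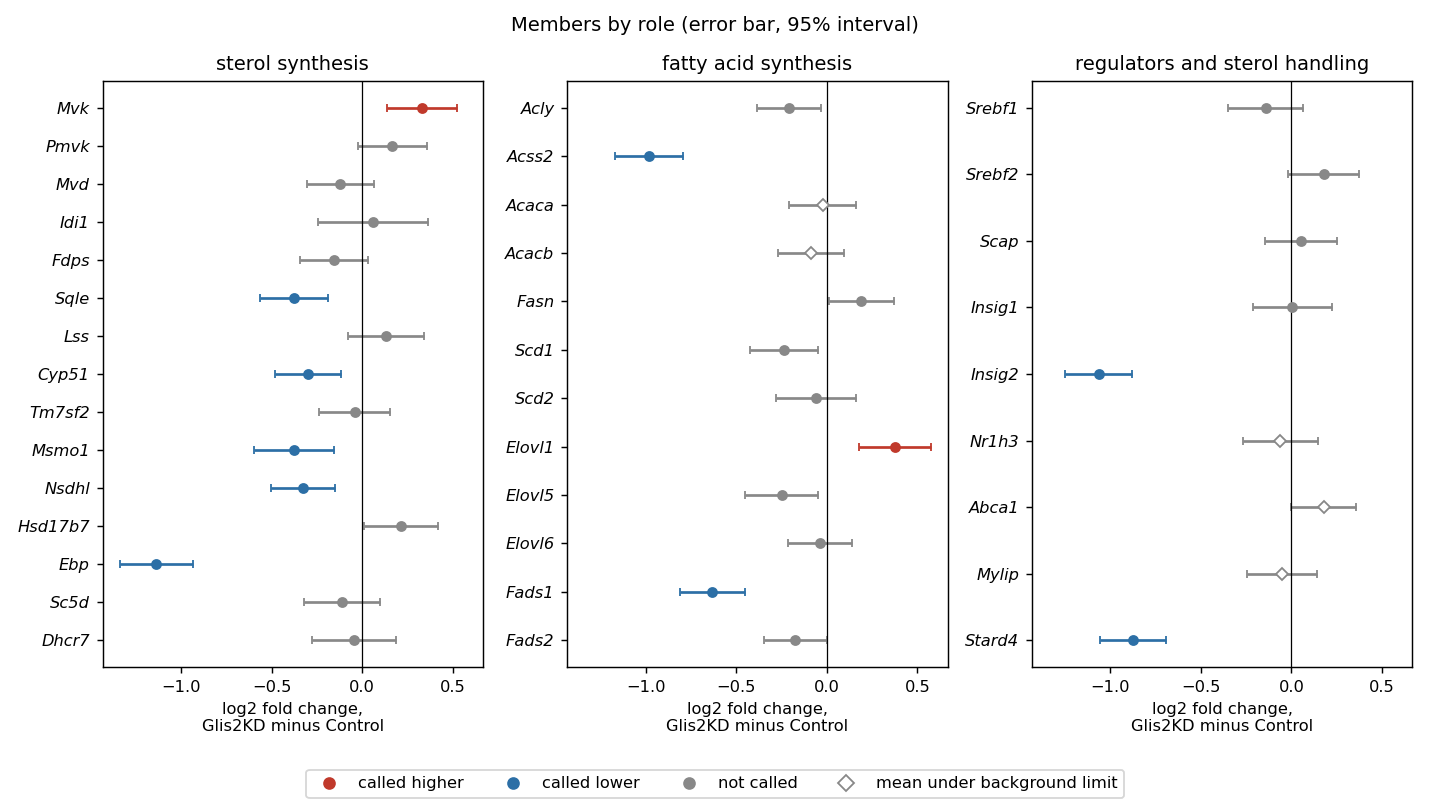
Log2 fold change (Glis2KD minus Control, x axis) of the 36 measured genes in pathway order, with limma's 95% interval; colours give the call and open diamonds a mean intensity under the background limit. Ebp, Acss2 and Insig2 lie near -1, Stard4 at -0.87, and most other genes lie within 0.4 of 0.

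Of the measured enzymes of the mevalonate steps, Mvk, Pmvk, Mvd, Idi1 and Fdps, 1 was called, beside 43% of all genes above the limit. Mvk, mevalonate kinase, had intensities of 189.6, 234 and 216 on the Glis2KD arrays, against 172, 161 and 175 on the Control arrays, and rose by 0.33 ± 0.093 (SE) on the log2 scale with limma's adjusted p = 0.0097. The lowest Glis2KD array was above the highest Control array by a small margin, and both groups were close to background. The next kinase, Pmvk, had a log2 fold change of 0.17 (95% interval -0.024 to 0.36), the decarboxylase Mvd had -0.12 (-0.31 to 0.063), and the isomerase Idi1 had 0.058 (-0.24 to 0.36). Fdps, which makes farnesyl diphosphate, was at 16698 ± 1454 in Glis2KD and 18574 ± 1193 in Control cells (SD, n = 3), and its difference of -0.16 (-0.34 to 0.034) was not called. A dimmer second probe of Fdps, with means of 426 in Glis2KD and 366 in Control cells, gave 0.23, the other direction, and was not called. Mvk lost its call without Glis2KD replicate 2 or Control replicate 2 (limma's adjusted p = 0.0791 and 0.0507), with background subtracted (0.0912) and relative to its chromosome neighbours (0.277).

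The measured enzymes that act on squalene and on the sterol ring were Sqle, Lss, Cyp51, Tm7sf2, Msmo1, Nsdhl, Hsd17b7, Ebp, Sc5d and Dhcr7. Of these, 5 fell. Among all genes above the background limit, 21.8% were called lower and 43% in either direction. Sqle, squalene epoxidase, which catalyses a rate-limiting oxygenation, had intensities of 7521, 8882 and 7937 on the Glis2KD arrays, against 10066, 10441 and 11066 on the Control arrays. All Glis2KD arrays were below all Control arrays, and Sqle had a log2 fold change of -0.38 ± 0.090 (SE) and an adjusted p by limma of 0.00254. A second probe of Sqle above background gave -0.11 and was not called, and with the mean of its probes limma's adjusted p was 0.0653. The next enzyme, lanosterol synthase (Lss), had 0.13 (95% interval -0.078 to 0.34).

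Cyp51, the lanosterol demethylase, had intensities of 2903, 2872 and 2632 on the Glis2KD arrays, against 3199, 3632 and 3527 on the Control arrays. Msmo1, the C4-methylsterol oxidase, had 6525, 5334 and 6229.9 on the Glis2KD arrays, against 6839, 9330.4 and 7427 on the Control arrays. The groups were apart for both, narrowly for Msmo1, whose Control replicate 2 was the highest array. Their log2 fold changes were -0.30 ± 0.088 and -0.38 ± 0.11 (SE), with limma's adjusted p = 0.014 and 0.0112. Without Control replicate 2 both calls were lost (limma's adjusted p = 0.0697 for Cyp51 and 0.119 for Msmo1), and 3 sterol synthesis genes were called, against 6 with all arrays. The call of Cyp51 was also lost without Glis2KD replicate 3 (0.0777) and that of Msmo1 without Glis2KD replicate 2 (0.0942), by the same test. With background subtracted, limma's adjusted p was 0.062 for Cyp51 and 0.247 for Msmo1, and with normexp correction it was 0.0656 for Cyp51.

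Nsdhl, the sterol dehydrogenase that works beside Msmo1 in removing the C4 methyl groups, had intensities of 708, 724 and 759.7 on the Glis2KD arrays, against 899, 913 and 935 on the Control arrays. The groups were well apart, and the log2 fold change was -0.33 ± 0.084 (SE) and an adjusted p by limma of 0.0051. All 4 probes of Nsdhl were called lower in a fit over all annotated probes, with log2 fold changes from -0.47 to -0.33. Hsd17b7, the reductase that completes this demethylation, had a log2 fold change of 0.22 (95% interval 0.011 to 0.42) and was not called.

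Ebp, the sterol isomerase that moves a double bond in the ring, had the largest fold change of the 36 genes. Its intensities were 1436, 1143 and 1351 on the Glis2KD arrays, against 2656, 3110.0 and 2859.7 on the Control arrays, so that the Glis2KD mean was 45.6% of the Control mean. The log2 fold change was -1.14 ± 0.097 (SE) and an adjusted p by limma of 2.85e-09. The remaining late enzymes Tm7sf2, Sc5d and Dhcr7, which reduce or desaturate the ring, had log2 fold changes of -0.042, -0.11 and -0.045, with 95% intervals that together ran from -0.32 to 0.19. In all, 6 of 15 sterol synthesis genes were called, 1 higher and 5 lower, and all 15 lay above the background limit. That is 40%, near the 43% of all genes above the limit.

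**Figure D2:**
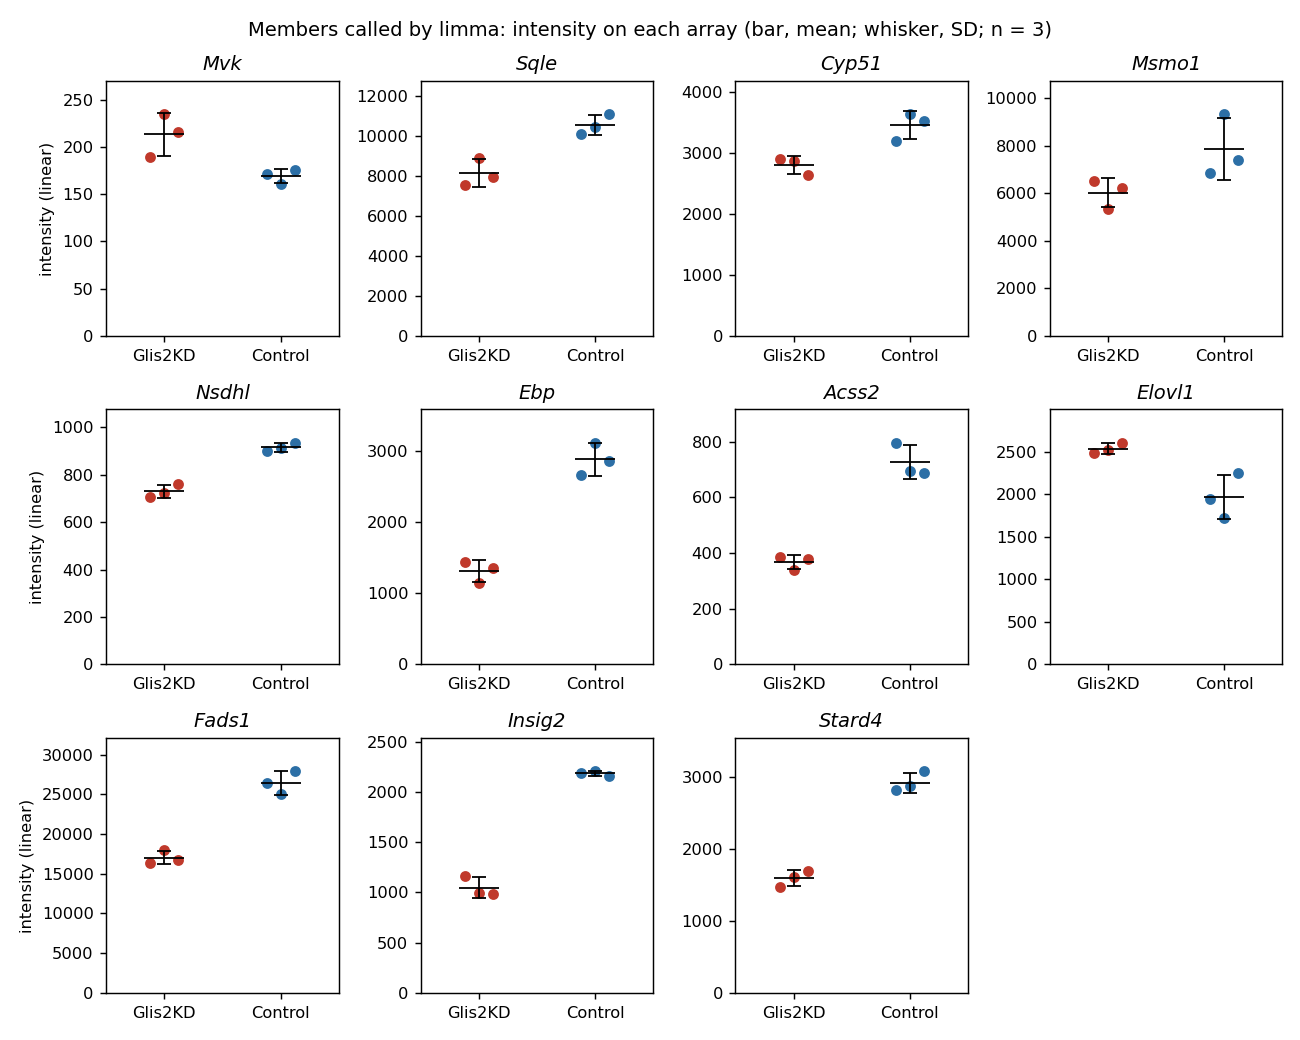
Linear intensity (y axis, starting at 0) on each of the 3 Glis2KD and 3 Control arrays for the 11 called genes, with the mean and SD of each group. The groups do not overlap in any panel, with the widest separation in Ebp, Acss2, Insig2 and Stard4.

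Among fatty acid synthesis genes, 2 of 12 fell and 1 rose, so 25% were called, beside 22.5% of all genes, and 30% of those above the limit, beside 43%. The supply of acetyl-CoA is served by Acly, which splits citrate, and by Acss2, which activates acetate. Acss2 had intensities of 386, 337 and 379 on the Glis2KD arrays, against 796, 694 and 688 on the Control arrays, and its Glis2KD mean was 50.6% of the Control mean. The log2 fold change was -0.98 ± 0.092 (SE) and an adjusted p by limma of 1.23e-08. The other probe of Acss2 was under the background limit in both groups. Acly had 10955, 11755 and 11730.2 on the Glis2KD arrays, against 13120.0, 13471 and 13189 on the Control arrays. Its groups did not overlap either, but its difference of -0.21 (95% interval -0.38 to -0.034) was not called, with limma's adjusted p = 0.086. Within each array the log2 ratio of Acss2 to Acly was lower in Glis2KD by 0.77 on average, and lower on all 3 Glis2KD arrays than on any Control array.

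Probes for the committed steps of fatty acid synthesis were dim, and so was that of the desaturase gene Scd1. Acaca, Fasn and Scd1 have 1 probe each, so low expression cannot be told apart from a probe that reports poorly. Acaca and Acacb, the acetyl-CoA carboxylases, were under the background limit on all 6 arrays. Fasn, the fatty acid synthase, was near it at 153 ± 9.39 in Glis2KD and 134 ± 5.80 in Control cells (SD, n = 3), and Scd1, a stearoyl-CoA desaturase, was at 143 ± 11.2 in Glis2KD and 168 ± 10.8 in Control cells. Neither was called (limma's adjusted p = 0.141 and 0.0658). Scd2, the other desaturase of that family, was well above background with 2074 ± 41.4 in Glis2KD and 2186 ± 426 in Control cells, a log2 fold change of -0.059 (95% interval -0.28 to 0.16).

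Fads1, the delta-5 desaturase of polyunsaturated fatty acids, fell. Its intensities were 16399, 18021 and 16705 on the Glis2KD arrays, against 26409, 24977 and 27905 on the Control arrays. All Glis2KD arrays were lower, the Glis2KD mean was 64.5% of the Control mean, and the log2 fold change was -0.63 ± 0.087 (SE) and an adjusted p by limma of 4.64e-06. A dim second probe of Fads1, with means of 178 in Glis2KD and 172 in Control cells, gave 0.058. Fads2, the delta-6 desaturase that precedes Fads1 in the same pathway and is its neighbour on chromosome 19, had 1403, 1377 and 1383 on the Glis2KD arrays, against 1508, 1569 and 1623 on the Control arrays. Its groups did not overlap, and its log2 fold change of -0.17 (95% interval -0.35 to -0.00015) was not called. A second probe of Fads2 above background, with means of 506 in Glis2KD and 512 in Control cells, gave -0.018 and was not called. The log2 ratio of Fads1 to Fads2, taken from the brightest probe of each, was lower in Glis2KD by 0.46 on average.

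Elovl1, an elongase of very long saturated and monounsaturated chains, was the fatty acid gene that rose. It had intensities of 2484, 2518 and 2603 on the Glis2KD arrays, against 1937, 1720.5 and 2243 on the Control arrays, a log2 fold change of 0.37 ± 0.096 (SE) and an adjusted p by limma of 0.00476. The other 3 probes of Elovl1 had positive log2 fold changes from 0.19 to 0.52, of which 1 was called in the fit over all annotated probes. Without Control replicate 2 the adjusted p by limma was 0.0504, and with background subtracted it was 0.113. Elovl5, which extends polyunsaturated chains, had -0.25 (95% interval -0.45 to -0.049), was not called, and was called lower without Glis2KD replicate 1 (limma's adjusted p = 0.00919). Elovl6, which extends palmitate, had -0.036 (-0.21 to 0.14). The log2 ratio of Elovl1 to Elovl5 was higher in Glis2KD by 0.62 on average. For each of these pairs, and for Insig2 with Insig1, the exact two-sided permutation test over arrays gave p = 0.1, the smallest that 3 against 3 arrays allow, so the design cannot reach 0.05 here. The adjusted value over the 4 pairs was also 0.1. For Insig2 with Insig1 the difference was -1.07, and it rests on the brightest Insig1 probe alone. The dimmer Insig1 probes ILMN_1245272 and ILMN_2606693 had log2 fold changes of -0.85 and -0.76, so the size of that difference depends on the probe.

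Of the regulators, the transcripts of the SREBP factors themselves were not called. Srebf2, which acts mainly on sterol genes, had intensities of 2569.9, 2696 and 2451 on the Glis2KD arrays, against 2077, 2169.6 and 2598 on the Control arrays, a log2 fold change of 0.18 (95% interval -0.017 to 0.37). Control replicate 3 lay among the Glis2KD arrays, and without it Srebf2 was called higher (limma's adjusted p = 0.043). A second probe of Srebf2, matched to a cDNA clone, was called higher at 0.32 in the fit over all annotated probes. Srebf1, which acts mainly on fatty acid genes, was near background at 162 ± 21.3 in Glis2KD and 178 ± 15.7 in Control cells (SD, n = 3), and Scap had a log2 fold change of 0.054 (95% interval -0.14 to 0.25).

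Insig2 fell, and both of its probes above background were lower in Glis2KD. The probe used had intensities of 1165, 996 and 985 on the Glis2KD arrays, against 2192, 2206 and 2158.5 on the Control arrays, a log2 fold change of -1.06 ± 0.089 (SE) and an adjusted p by limma of 2.34e-09. The other probe of Insig2 above background had 789.5, 837 and 748 on the Glis2KD arrays, against 1583, 1698 and 1577 on the Control arrays, a log2 fold change of -1.03. The 3 Control arrays of the probe used differed by little, and no Glis2KD array came near them.

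Insig1, the paralog of Insig2 and itself a target of SREBP, differed between its probes. By the brightest one, ILMN_2895388, it had 1516, 1798 and 1852 on the Glis2KD arrays, against 2025, 1506 and 1639 on the Control arrays, with overlapping groups and a log2 fold change of 0.0047 (95% interval -0.21 to 0.22). By ILMN_1245272 it had 535, 499.8 and 477 on the Glis2KD arrays, against 986, 866 and 869.6 on the Control arrays, a log2 fold change of -0.85. By ILMN_2606693 it had 546, 434 and 590.1 on the Glis2KD arrays, against 839, 817 and 996 on the Control arrays, a log2 fold change of -0.76. For these last probes the groups were well apart, and limma's adjusted p over all 34885 annotated probes was 1.22e-07 and 8.66e-06, where 17.6% of probes were called. All 3 probes are annotated to the same RefSeq transcript, so the deposited values do not settle whether Insig1 changed. These probes were singled out after their values were seen.

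**Figure D3:**
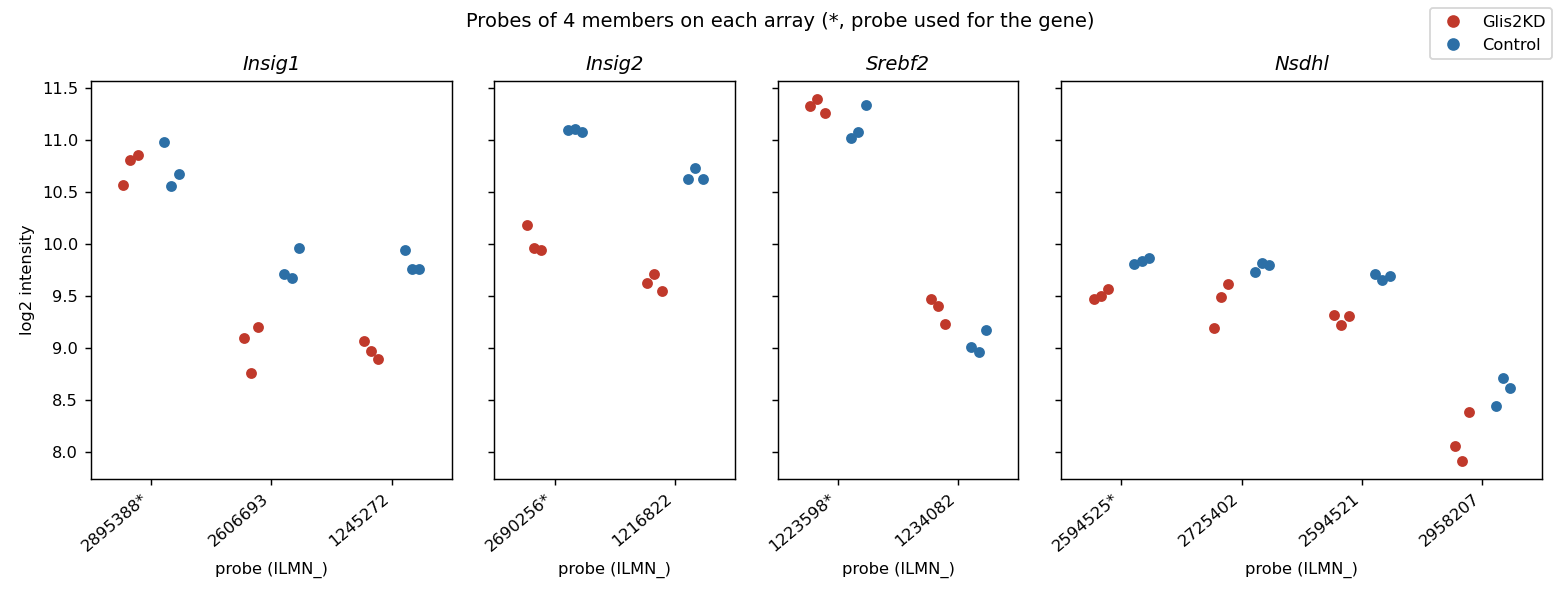
Log2 intensity (y axis) on each Glis2KD and Control array for every probe above the background limit of Insig1, Insig2, Srebf2 and Nsdhl, with an asterisk at the probe used for the gene. The 2 dimmer Insig1 probes separate the groups while the brightest does not, whereas both Insig2 probes and all 4 Nsdhl probes are lower in Glis2KD.

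Stard4, a soluble sterol carrier that is also induced when sterols are low, had intensities of 1479, 1619 and 1692 on the Glis2KD arrays, against 2820.3, 2871 and 3083 on the Control arrays. The Glis2KD mean was 54.6% of the Control mean, with a log2 fold change of -0.87 ± 0.088 (SE) and limma's adjusted p = 4.28e-08. Nr1h3, which encodes a liver X receptor, was under the background limit on all 6 arrays. So were the transcripts of its known target genes, Abca1 of a cholesterol exporter and Mylip of the ligase that degrades the LDL receptor. In all, 2 of 9 measured regulators and handling genes fell, Insig2 and Stard4, and the other 7 were not called. That is 22.2%, beside 22.5% of all genes, and 33.3% of those above the limit, beside 43%.

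Several of these genes lie in stretches of chromosome where neighbouring genes also differed, and the neighbours' values are given for that reason. Of all genes above the background limit, 21.8% were called lower and 21.2% higher. Ebp lies on the X chromosome, and the 50 nearest genes above background had a median log2 fold change of -0.64, with 37 of 50 called lower. Stard4 lies on chromosome 18, where the 50 nearest had a median of -0.45, with 35 called lower. Taken relative to those neighbours, Ebp had -0.52 and Stard4 -0.43, and both were still called (limma's adjusted p = 0.00017 and 0.000495). Insig2 on chromosome 1 and Acss2 on chromosome 2 had neighbours with medians of -0.087 and 0.013, with 18 of 50 called lower and 3 higher around Insig2, and relative to them their log2 fold changes were -0.95 and -1.01. Fads1 lies among genes with a median of 0.25, 25 of 50 called higher, and had -0.89 relative to them, while Fads2 then had -0.44 and was called (limma's adjusted p = 0.000347). That fit used the brightest probe of each gene alone, and the second Fads2 probe was not part of it. Nsdhl and Msmo1 lost their calls relative to neighbours (limma's adjusted p = 0.0542 and 0.0531). Other sterol genes gained calls in some alternatives, Tm7sf2 and Fdps lower in 1 of 16 each and Hsd17b7 higher in 2. Their neighbours had medians of 0.32, 0.12 and -0.10. Over the alternatives their strongest log2 fold changes were -0.38, -0.28 and 0.32, and limma's lowest adjusted p was 0.00386, 0.0226 and 0.0196. The part of these neighbourhoods in the results was not tested further.

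**Figure D4:**
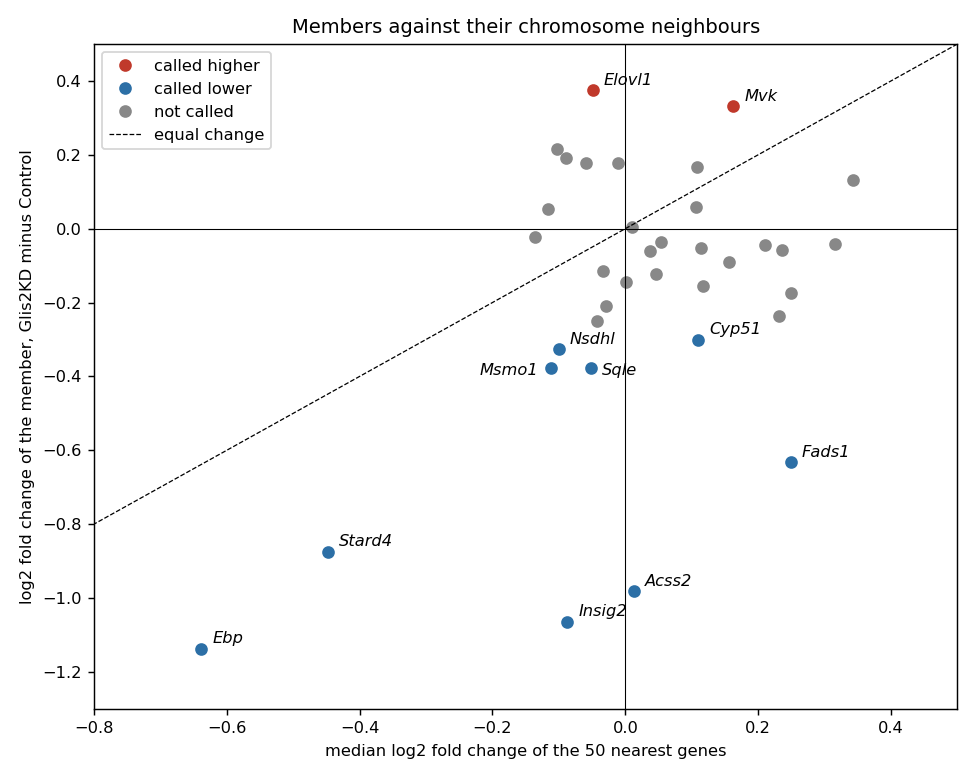
Log2 fold change of each of the 36 genes (y axis) against the median log2 fold change of its 50 nearest genes above background (x axis), both Glis2KD minus Control; the dashed line marks equal change. Neighbour medians are -0.64 for Ebp, -0.45 for Stard4, -0.087 for Insig2, 0.013 for Acss2 and 0.25 for Fads1.

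The promoters of these genes were read from RefSeq (GRCm38.p6), since genes under common control may share short motifs there. Promoters were found for 33 of the 40 symbols, 43 in all because some genes have several starts, and the 250 bases before each start were searched on both strands. The sterol regulatory element was searched as TCACNCCAC. The E-box, which SREBP proteins can also bind, was searched as CACGTG, and the site of NF-Y, a partner of SREBP, as CCAAT. The GC box of Sp factors was searched as CCGCCC. The site of Gli proteins was searched as GACCACCCA and the core reported for Glis proteins as TGGGGGGT. The CCAAT box was present in 58.1% of the promoters of listed genes and in 33.8% of all 32851 promoters. Within the list it was in 6 of 8 promoters of genes that fell and in 16 of 29 promoters of measured genes that were not called. The 8 promoters belong to 6 of the 9 genes that fell, without Sqle, Fads1 and Stard4, which had no entry in the promoter table. The GC box was in 67.4% of listed promoters against 32.7% of all, and the E-box in 16.3% against 6.02%. The GC box was in 7 of 8 promoters of genes that fell and 17 of 29 of those not called, and the E-box in 0 of 8 and 7 of 29. The genes that rose, Mvk and Elovl1, had 3 promoters, with the CCAAT box in 2, the GC box in 3 and the E-box in 0. The sterol regulatory element letters were in 1 of 43 listed promoters, that of Hmgcs1, and in 1.05% of all, and the Gli and Glis letters in 0 of 43, against 0.225% and 1.36% of all. These matches are descriptions of letters, not of bound sites. The set of all promoters includes genes not detected here. Above the background limit lay 31 of the 36 measured listed genes, against 9716 of all 19057 genes. The shares therefore do not compare listed genes with other detected genes.

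The promoters of the genes that fell to about 50% of Control, other than Stard4, are shown because these are the largest changes in the list. They are written 5′ to 3′ on the gene's strand, ending at the base before the start, with CCAAT and GC box letters in capitals on either strand. Acss2 has 1 CCAAT and 4 GC boxes and Ebp 2 CCAAT and 1 GC box. Insig2 has 3 annotated starts, and the most upstream one carries 3 CCAAT boxes and the other starts 1 GC box each. Which start these cells use is not known from the arrays.
Acss2, chr2:155517793-155518042, plus strand: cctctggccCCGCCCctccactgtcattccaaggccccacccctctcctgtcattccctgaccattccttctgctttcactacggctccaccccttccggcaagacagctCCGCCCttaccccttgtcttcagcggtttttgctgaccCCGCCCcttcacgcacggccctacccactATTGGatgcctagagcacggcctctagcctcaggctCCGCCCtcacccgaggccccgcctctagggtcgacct
Ebp, chrX:8193513-8193762, minus strand: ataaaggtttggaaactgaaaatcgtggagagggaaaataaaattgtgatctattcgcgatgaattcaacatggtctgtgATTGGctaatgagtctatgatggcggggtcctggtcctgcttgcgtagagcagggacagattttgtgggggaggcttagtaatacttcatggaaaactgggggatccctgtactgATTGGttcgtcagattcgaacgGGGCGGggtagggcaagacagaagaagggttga
Insig2 upstream start, chr1:121332590-121332839, minus strand: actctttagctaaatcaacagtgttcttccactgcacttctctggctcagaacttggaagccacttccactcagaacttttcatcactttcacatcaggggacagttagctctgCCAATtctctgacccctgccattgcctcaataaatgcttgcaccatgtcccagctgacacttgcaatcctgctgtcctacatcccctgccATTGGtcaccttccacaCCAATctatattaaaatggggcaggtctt
Insig2 middle start, chr1:121328025-121328274, minus strand: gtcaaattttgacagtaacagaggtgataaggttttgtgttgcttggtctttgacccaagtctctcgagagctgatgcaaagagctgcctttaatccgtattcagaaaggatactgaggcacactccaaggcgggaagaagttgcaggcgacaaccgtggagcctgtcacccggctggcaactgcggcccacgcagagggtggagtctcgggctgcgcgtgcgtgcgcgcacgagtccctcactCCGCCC
Insig2 downstream start, chr1:121327679-121327928, minus strand: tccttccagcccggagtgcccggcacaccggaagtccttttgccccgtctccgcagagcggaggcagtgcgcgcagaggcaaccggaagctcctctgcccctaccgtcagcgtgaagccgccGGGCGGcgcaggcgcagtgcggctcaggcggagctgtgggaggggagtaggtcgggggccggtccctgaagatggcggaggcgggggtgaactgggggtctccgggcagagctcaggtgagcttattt

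Of 19 other genes of sterol synthesis and handling, 12 were measured, of which 3 fell, 1 rose and 8 were not called. Of those above the limit 40% were called, near the 43% of all genes above it. Npc1 and Npc2, whose products together release cholesterol from lysosomes, both fell. Npc1 had intensities of 1408, 1354 and 1286 on the Glis2KD arrays, against 2772, 2285 and 2364 on the Control arrays, a log2 fold change of -0.87 ± 0.092 (SE). Npc2 had 1679, 1838 and 2044 on the Glis2KD arrays, against 3249, 3155 and 2855 on the Control arrays, a log2 fold change of -0.74 ± 0.093 (SE). For both genes the groups were well apart, with limma's adjusted p = 9.44e-08 and 1.37e-06. Lbr, the lamin B receptor, which also has sterol reductase activity, had -0.68, and Scarb1, a lipoprotein receptor, had 0.25, lay near background, and lost its call in 11 of 16 alternatives. With the mean of its 7 probes the log2 fold change of Npc1 was -0.29 and it was still called (limma's adjusted p = 0.00336).

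Of 24 other fatty acid and glycerolipid genes, 23 were measured, of which 7 fell, 2 rose and 14 were not called. Of those above the limit 40.9% were called, again near the 43% of all such genes. Mid1ip1, an activator of acetyl-CoA carboxylase, had intensities of 1730.4, 1439.8 and 1743 on the Glis2KD arrays, against 3345, 3562 and 4327 on the Control arrays, a log2 fold change of -1.19 ± 0.10 (SE) and an adjusted p by limma of 3.55e-09. It lies in the same X chromosome region of lower genes, where its 50 nearest had a median of -0.64. Lpcat3, which puts polyunsaturated chains into phospholipids, had 1443, 1466 and 1366 on the Glis2KD arrays, against 2634, 2261 and 2601 on the Control arrays, a log2 fold change of -0.81 ± 0.089 (SE). Acsl3, an acyl-CoA synthetase of lipid droplets, had -0.69, and it was not called with the mean of its probes (limma's adjusted p = 0.0588). Hsd17b12, the ketoreductase of the elongation cycle, had -0.43. The genes that rose were Agpat2, by 0.41, and Dgat2, which makes triglyceride, by 0.35. With background subtracted Agpat2 was not called (limma's adjusted p = 0.0567). Both act in glycerolipid assembly, but the other listed genes of that route were not called higher. Lpin2 was called lower at -0.26 (limma's adjusted p = 0.0308) and lost its call in 8 of 16 alternatives. Gpam, Agpat5, Lpin1 and Dgat1 were not called. Relative to its chromosome neighbours Dgat2 had 0.15 and was not called (limma's adjusted p = 0.213).

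**Figure D5:**
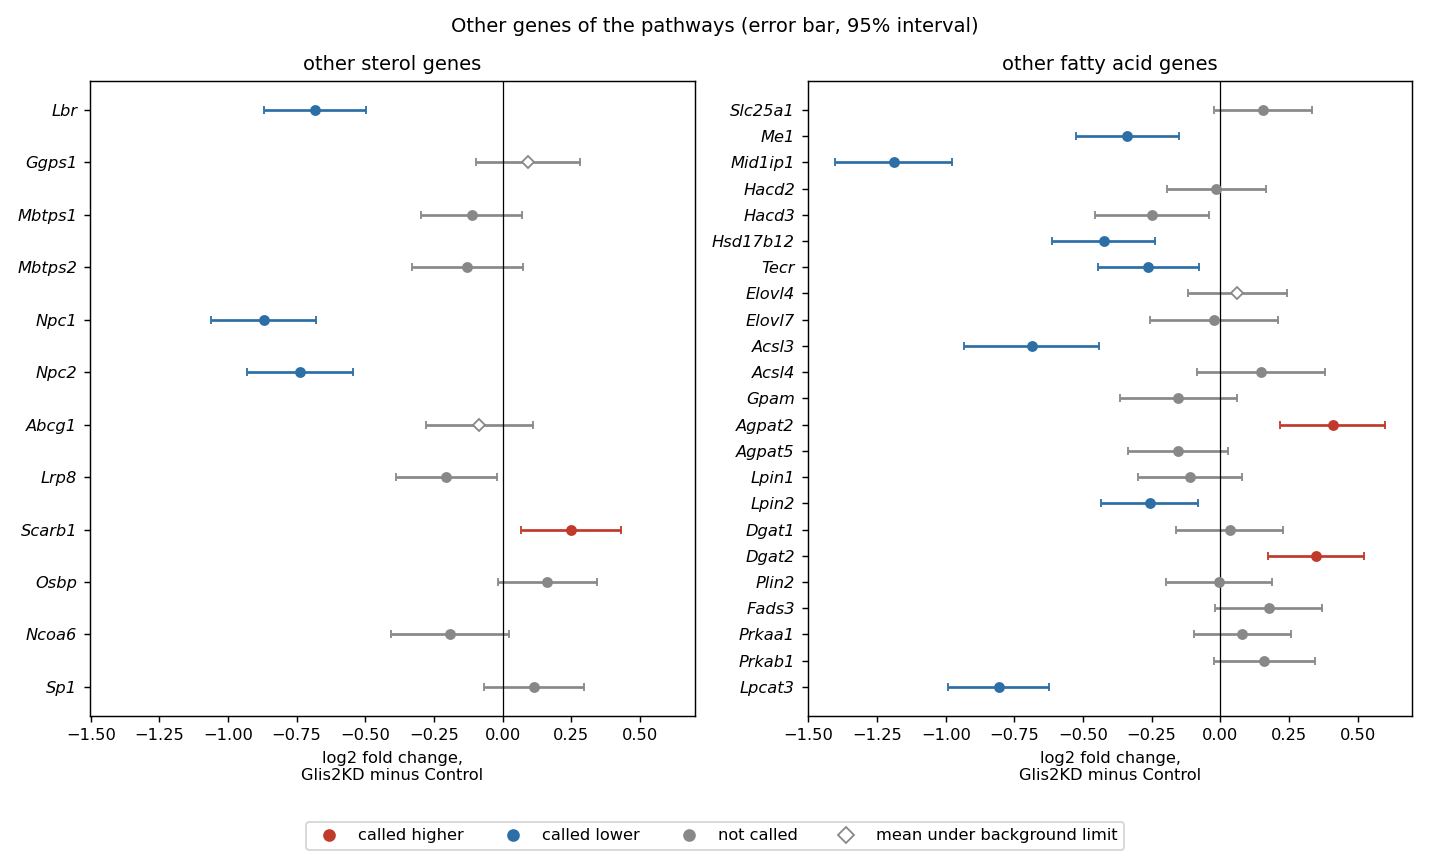
Log2 fold change (Glis2KD minus Control, x axis) with limma's 95% interval for 12 other sterol genes and 23 other fatty acid and glycerolipid genes. Npc1, Npc2, Lbr, Mid1ip1, Lpcat3 and Acsl3 lie below -0.6, and Agpat2 and Dgat2 lie above 0.3.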

How the data were processed

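RNA of 6 samples, 3 Glis2KD and 3 Control, was hybridised with Cy3 label to Illumina mouse bead arrays, per the labels' protocols. In the authors' deposited table each array has 1 intensity per probe on a linear scale; the software and normalization behind it are not given in the sources used. Its arrays already shared 1 distribution (log2 medians within 0.00029) and background was included, with a lowest intensity of 85.4. The number of arrays limits the precision. Values were floored at 16, which altered 0 values, and taken to log2. Of 45281 probes, 34885 had 1 gene symbol, 18 several and 10378 none. Of those with 1 symbol, 34807 matched a RefSeq gene (GRCm38.p6) by Entrez identifier, with 0 symbols changed. That table gave names, chromosomes and the order of genes, and RefSeq promoters of the same build gave the sequences. The background limit, chosen after seeing the data, lay 3 SD above the most frequent intensity, with the SD taken from lower intensities.

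Differences, Glis2KD minus Control, were tested with lmFit and eBayes of limma 3.58.1 (R 4.3.3), adjusted by Benjamini-Hochberg over 19057 genes, and tested on simulated data. Named genes were all measured list members, with every array's value for those called and for any whose second probe was called the opposite way, Glis2, and up to 6 called genes of each list of other pathway genes by smallest p. Array values of Acly, Fads2, Srebf2 and Insig1 were added after they were seen, and so were the names of Lpin2, Gpam, Agpat5, Lpin1 and Dgat1. Members and lists were chosen with earlier results of these data known. The alternatives tried were background subtraction, a replicate block, median centring, quantile normalization, normexp correction, the mean of a gene's probes, genes above the limit alone, eBayes with trend and robust, an offset of 50, values relative to the 50 nearest genes, each array left out, and, added after seeing the data, every probe kept. Taking neighbours from genes above the limit alone was also decided after seeing the data.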

Additional observations from a re-analysis of the deposited data

How the results depend on the processing

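With the replicate block, which adds the replicate number as a term although same-numbered replicates did not deviate together (r = -0.0916, -0.0385 and -0.0375 across genes above the limit), 4119 of all genes were called against 4290 without it. It gave 6 sterol synthesis genes, 3 fatty acid genes, 2 regulators, 3 other sterol genes and 9 other fatty acid genes, and changed no call among the 36 genes. Without single arrays the number of called sterol synthesis genes ran from 3 (without Control replicate 2) to 6, that of fatty acid genes from 2 to 4 and that of regulators from 2 to 3. In these fits 3751 to 3994 of all genes were called. Background subtraction left 2644 genes called in all, 3 sterol synthesis genes and 5 other fatty acid genes. The mean of a gene's probes left 3739 of all genes called, with 5 fatty acid genes and 4 regulators among them. Insig1 was then at -0.43 (limma's adjusted p = 0.000594). With every probe kept, chosen after seeing the data, 4 regulators had a called probe, where 17.6% of all annotated probes were called. Relative to neighbouring genes 8 fatty acid genes were called, but calls rose in general, to 5391 of 18964 genes against 4290 of 19057 otherwise. Sp1, a factor that binds GC boxes, then had a log2 fold change of -0.29, against 0.11 otherwise. The causes were not tested. Ebp, Acss2, Fads1, Insig2 and Stard4 kept their direction and their call in all 16 alternatives listed other than the one added after seeing the data, including each array left out, with the highest adjusted p by limma at 0.0137. Dim genes such as Fasn and Scd1 are limited by background: subtracting it moved their log2 fold changes to 0.89 and -0.92, not called. Relative to neighbours Fasn was called higher and Scd1 lower (limma's adjusted p = 0.0311 and 0.000141), and Scd1 was also called without Glis2KD replicate 2 (0.0344). Scd1 has 1 probe, so the mean of probes left its values unchanged, and its call there (limma's adjusted p = 0.0455) adds no second probe.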
